A study of Mus musculus with 93 samples.

Results

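Livers of WSB/EiJ and C57BL/6J mice on control diet (CD) were compared gene by gene, to find out how far the baseline transcriptome of the liver differs between these strains. Every CD sample of both strains was taken, which gave 14 mice of the 93 in the series, 6 WSB/EiJ and 8 C57BL/6J, and 19110 expressed genes were tested. WSB/EiJ is an inbred strain derived from wild mice of the subspecies Mus musculus domesticus, and C57BL/6J is the classical laboratory strain from which the mouse reference genome was built. The labels name no engineered allele in either strain. All 14 mice were male, were kept at 30°C from 6 wk of age, and ate CD, with 10% of the calories from fat, 17% from protein, and 73% from carbohydrate, for 17 wk beginning at the age of 7 wk. They were killed in the afternoon at 24 wk of age after a fast of 4 h, and their livers were perfused with saline. The series also holds both strains on Western diet (WD), used below as 6 WSB/EiJ and 8 C57BL/6J mice that the CD comparison does not share, and 5 further strains (DBA/2J, A/J, 129S1/SvImJ, CAST/EiJ, and PWK/PhJ) on both diets. The cohorts of the strains do not overlap. The C57BL/6J mice on CD came from cohort 1 (3 mice) and cohort 2 (5 mice), and the WSB/EiJ mice on CD from cohort 6 (4 mice) and cohort 7 (2 mice). Strain and cohort cannot be told apart for any difference given here.

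The liver makes most plasma proteins, among them albumin, apolipoproteins, coagulation factors, complement, and protease inhibitors, and it synthesizes, stores, and exports lipid. Its hepatocytes hold the cytochrome P450 enzymes and conjugating enzymes that modify drugs and steroids. Many of these genes are expressed differently in male and female mice because growth hormone is released in pulses in males. Resident macrophages, the Kupffer cells, and lymphocytes make up much of the immune compartment of the liver.

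Each library held between 45135933 and 49648938 reads on genes. Levels are given as CPM, the count of a gene relative to all reads on genes (the usual CPM) after scaling with TMM factors, and differences as log2 fold changes of WSB/EiJ over C57BL/6J, so that positive values are higher in WSB/EiJ. The TMM factors were 0.974 to 1.22 in C57BL/6J and 0.810 to 0.906 in WSB/EiJ and did not overlap. A lower factor gives a higher CPM, so small differences between the strains depend on this scaling. Reads that did not map to the C57BL/6J genome made up 1.66% to 2.60% of all reads in C57BL/6J and 2.44% to 6.44% in WSB/EiJ (exact permutation test, two-sided, adjusted p = 0.004, n = 8 and 6). Reads mapped to several places made up 8.03% to 9.75% in C57BL/6J and 9.93% to 11.8% in WSB/EiJ (exact permutation test, adjusted p = 0.00266), and the strains did not overlap there. The first principal component of the 14 livers held 59.7% of the variance and separated the strains, and the second, with 13.3%, set C57BL/6J mouse 2 apart from the other 13. That mouse had correlations of 0.944 to 0.968 with the other C57BL/6J mice, which had at least 0.98 among themselves, and markers of lipid-associated or recruited macrophages summed to 1287 CPM in it against 106 to 377 CPM in the other 7. WSB/EiJ mouse 5 had 1002 CPM of exocrine pancreas and gut markers against 26.5 to 37.4 CPM in the other 5 WSB/EiJ mice. No call on a gene named here was lost when either mouse was left out. The RNA integrity number was under 8 in 1 mouse of each strain, C57BL/6J mouse 5 and WSB/EiJ mouse 6.

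Strain labels were checked with Nnt, the mitochondrial transhydrogenase that is partly deleted in C57BL/6J. Its levels were 58.0 to 80.9 CPM (median 66.7) in C57BL/6J and 129.9 to 154 CPM (median 144) in WSB/EiJ, so that the groups did not overlap (log2 fold change 1.11, SE 0.07, adjusted p = 1.11e-24). The deletion leaves part of the gene, and reads were present in C57BL/6J. The Y-linked Ddx3y had 56.8 to 79.7 CPM (median 66.5) in C57BL/6J and 66.3 to 76.3 CPM (median 71.3) in WSB/EiJ (adjusted p = 0.504). The X-inactivation transcript Xist stayed at or below 0.399 CPM in all 14 mice, which were labelled male. Hepatocyte markers were abundant in every mouse. Their sum was 124916 to 148086 CPM in C57BL/6J and 169552 to 209915 CPM in WSB/EiJ, and Alb, which encodes albumin, had 88962 to 107503 CPM (median 100804) in C57BL/6J and 102890.0 to 138572 CPM (median 110370.0) in WSB/EiJ (adjusted p = 0.0808). Of the 14 markers, 9 were called higher in WSB/EiJ, and Glul, the glutamine synthetase of hepatocytes around the central vein, was called lower (log2 fold change -0.87, adjusted p = 9.45e-05), though against C57BL/6J cohort 1 it was at -0.30 (adjusted p = 0.4) in cohort 6 and -0.31 (adjusted p = 0.5) in cohort 7. In whole liver, fewer cells of a type and less RNA per cell cannot be told apart.

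On CD, 10275 of 19110 genes (53.8%) were called at an adjusted p below 0.05 with limma-voom, 5171 (27.1%) higher and 5104 (26.7%) lower in WSB/EiJ. The median log2 fold change over all genes was -0.0016, and over the genes called the median size was 0.72. A difference of at least 2-fold was called for 3988 genes (20.9%), of which 1360 were higher and 2628 lower in WSB/EiJ. The CPM of the strains did not overlap for 4179 genes (21.9%), and 4177 of these were called. On WD, in mice that the CD comparison does not use but from the same cohorts, 10267 genes (53.7%) were called. Of the CD calls, 7891 (76.8%) were called on WD with the same sign and 50 with the opposite sign, and of the 2-fold CD calls, 3368 (84.5%) were called on WD with the same sign. The strain difference itself differed between diets for 493 genes (2.58%). Within the CD mice, 9875 of the calls (96.1%) had the same sign in all 4 pairs of a WSB/EiJ cohort with a C57BL/6J cohort, and 4255 (41.4%) were called in each pair. The pairs are parts of the same mice that gave the calls, so agreement in sign is not a separate test. Of the genes called, 711 overlap another gene on the same strand and 2844 one on the opposite strand. The strand used in counting is not given, so the reads of such genes are uncertain, among those named below Bhlhe41, Cd9, Csad, Cyp2a4, Dbp, Fdps, Glul, Gpc1, Hamp2, Hmgcs1, Me1, Mndal, mt-Co1, Nr1d1, Olfr1034, Pck2, Plg, Pltp, Sds, Serpina3k, Spp1, Ugt1a9, and Xist.

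**Figure D1:**
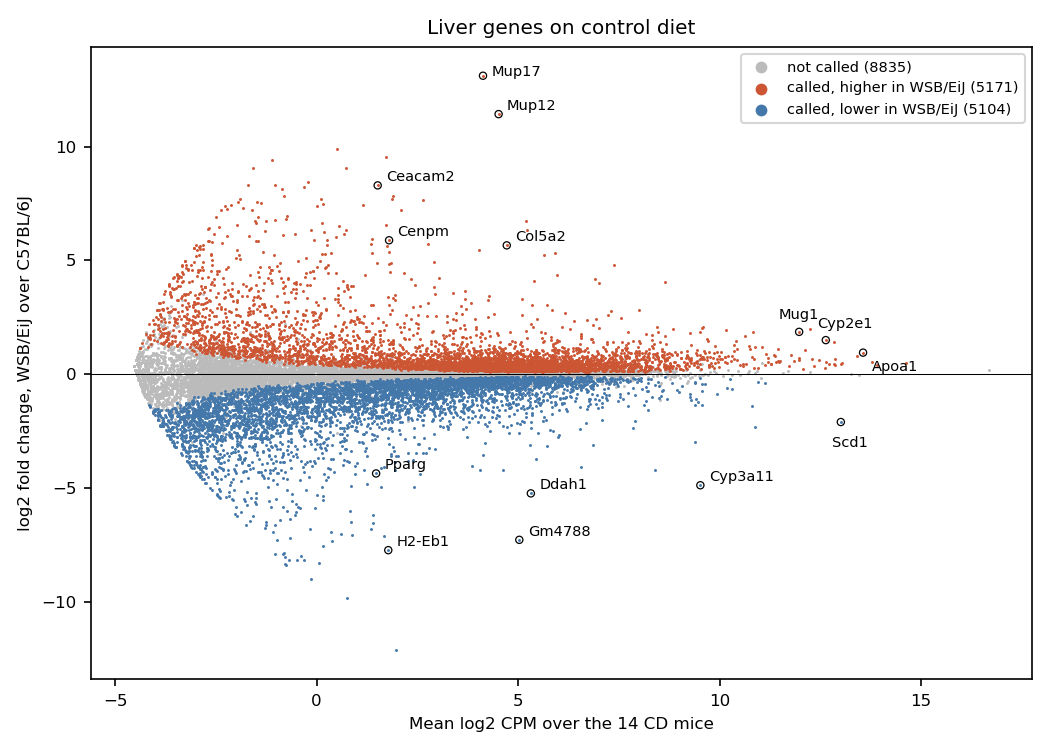
Each point is 1 of 19110 genes, with its mean log2 CPM over the 14 CD mice on the x axis and its log2 fold change of WSB/EiJ over C57BL/6J on the y axis. Colours mark the 5171 genes called higher and the 5104 called lower in WSB/EiJ, and circles mark genes named in the text, from Mup17 at 13.11 to H2-Eb1 at -7.74.

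Genes of lipid synthesis were lower in WSB/EiJ. Scd1, the desaturase that makes oleate and palmitoleate, was among the most abundant genes with a 2-fold difference, at 4711 to 27709 CPM (median 16459) in C57BL/6J and 1874 to 6828 CPM (median 3333) in WSB/EiJ (log2 fold change -2.11, SE 0.28, adjusted p = 4.79e-10). The only C57BL/6J mouse within the WSB/EiJ range was mouse 2, with 4711 CPM. In the fatty acid synthesis list, 1 of 18 members were called higher in WSB/EiJ and 10 lower, with a median log2 fold change of -0.56. The share called was 61.1%, beside 53.8% of all genes tested. Pnpla3, a lipid droplet lipase, had 5.00 to 21.8 CPM (median 11.5) in C57BL/6J and 0.330 to 2.35 CPM (median 0.749) in WSB/EiJ (log2 fold change -3.51, adjusted p = 0.0006). Me1, the malic enzyme that supplies NADPH, had 125 to 531 CPM (median 353) in C57BL/6J and 62.2 to 214 CPM (median 118) in WSB/EiJ (log2 fold change -1.42, adjusted p = 1.02e-07). Fasn, the fatty acid synthase, had 449 to 1406 CPM (median 954) in C57BL/6J and 305 to 932 CPM (median 404) in WSB/EiJ, with overlapping ranges (log2 fold change -1.08, adjusted p = 0.00138). When every gene with any count was kept, the log2 fold change of Scd1 was -1.87 (adjusted p = 0.721). With the 2 mice of WSB/EiJ cohort 7 against C57BL/6J cohorts 1 and 2, the log2 fold change of Fasn was -0.27 (adjusted p = 0.693) and -0.44 (adjusted p = 0.453), and that of Me1 was -0.58 (adjusted p = 0.217) and -0.71 (adjusted p = 0.0908). That of Pnpla3 was -1.95 (adjusted p = 0.106) with cohort 7 against cohort 2.

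In the cholesterol synthesis list, 1 of 20 members were called higher in WSB/EiJ and 14 lower, with a median log2 fold change of -0.86. Hmgcs1, the cytosolic synthase of the mevalonate pathway, showed the largest difference of the list, at 127 to 438 CPM (median 265) in C57BL/6J and 28.5 to 116 CPM (median 65.6) in WSB/EiJ (log2 fold change -2.03, SE 0.26, adjusted p = 2.54e-10). Fdps, which makes farnesyl diphosphate, followed, at 5.03 to 11.9 CPM (median 7.96) in C57BL/6J and 1.04 to 4.84 CPM (median 3.03) in WSB/EiJ (log2 fold change -1.63, adjusted p = 1.13e-05). With cohort 7 against cohort 1, Fdps was at -0.86 (adjusted p = 0.118). Ebp, a sterol isomerase, was the only member called higher (log2 fold change 0.36, adjusted p = 2.53e-05). Sterol-responsive genes carry a binding site for SREBP factors, so the 250 bases before the start of Hmgcs1 are shown as the member with the largest difference (RefSeq, GRCm38.p6, plus strand, chr13:119690101-119690350), 5′ to 3′, with the letters TCACNCCAC, searched on both strands, in capitals:
Hmgcs1: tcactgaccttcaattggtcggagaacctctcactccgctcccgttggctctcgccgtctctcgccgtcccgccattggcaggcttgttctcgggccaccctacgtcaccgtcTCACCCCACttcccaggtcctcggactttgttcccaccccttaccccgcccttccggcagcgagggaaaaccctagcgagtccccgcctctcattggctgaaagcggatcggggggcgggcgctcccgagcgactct
Of 15 members of the list with such a window, Hmgcs1 alone held these letters, which occur in 1.22% of 27025 mouse genes and 1.05% of their 32851 promoter windows of the same length. The match is a description of the reference sequence, and the WSB/EiJ sequence was not analysed here.

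Genes of lipid storage and uptake gave 8 members called lower and 2 higher of 24, with a median log2 fold change of -0.24. The share called was 41.7%, under the 53.8% of all genes tested. Pparg, the nuclear receptor that drives lipid storage, stayed under 1 CPM in WSB/EiJ, at 5.46 to 16.4 CPM (median 10.5) in C57BL/6J and 0.304 to 0.675 CPM (median 0.475) in WSB/EiJ (log2 fold change -4.37, SE 0.60, adjusted p = 1.6e-09). Cidec, which enlarges lipid droplets, had 6.03 to 68.8 CPM (median 13.4) in C57BL/6J and 2.34 to 7.58 CPM (median 3.95) in WSB/EiJ (log2 fold change -1.92, adjusted p = 0.00637), and the fatty acid transporter Cd36 had 38.8 to 157 CPM (median 50.7) in C57BL/6J and 19.2 to 27.1 CPM (median 23.6) in WSB/EiJ (log2 fold change -1.34, adjusted p = 2.1e-07). Plin2, the main coat protein of hepatocyte lipid droplets, had 331 to 1616 CPM (median 1165) in C57BL/6J and 265 to 739 CPM (median 411) in WSB/EiJ (log2 fold change -1.21, adjusted p = 0.000338). Ranges of Pparg and Cd36 did not overlap between strains, whereas those of Cidec and Plin2 did. Against C57BL/6J cohort 1, Cidec was at -1.06 (adjusted p = 0.301) in cohort 6 and -1.65 (adjusted p = 0.272) in cohort 7, and Plin2 at -0.60 (adjusted p = 0.193) in cohort 6. Fgf21, a hormone secreted by the fasted or protein-restricted liver, had 13.9 to 64.4 CPM (median 51.1) in C57BL/6J and 1.88 to 18.1 CPM (median 4.70) in WSB/EiJ (log2 fold change -3.04, SE 0.48, adjusted p = 8.22e-08), and the low C57BL/6J value belonged to mouse 7 alone. Fatty acid oxidation and ketogenesis, the list that holds Fgf21, had 9 of 26 members called higher and 3 lower (median 0.16). Its share called, 46.2%, was also under that of all genes.

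Lipoprotein genes went the other way. In the list of apolipoproteins and lipoprotein handling, 18 of 26 members were called higher in WSB/EiJ and 3 lower, with a median log2 fold change of 0.54. Apoa1 and Apoa2, the main proteins of HDL, had 6108 to 10460.3 CPM (median 9595) in C57BL/6J and 16069.7 to 19183 CPM (median 17336) in WSB/EiJ (log2 fold change 0.94, SE 0.09, adjusted p = 2.31e-14), and 1820.1 to 4333 CPM (median 3559.5) in C57BL/6J and 5763 to 8375 CPM (median 6616) in WSB/EiJ (log2 fold change 1.06, adjusted p = 1.4e-12), in that order, with no overlap for either. Pltp, the phospholipid transfer protein of plasma, was lower, at 20.1 to 146 CPM (median 55.1) in C57BL/6J and 15.2 to 23.5 CPM (median 18.3) in WSB/EiJ (log2 fold change -1.69, adjusted p = 5.09e-10). Among genes of bile acid synthesis and transport, 10 of 24 were called higher and 3 lower, or 54.2% called beside 53.8% of all genes tested. Cyp7b1, the oxysterol hydroxylase of the alternative pathway, was higher, at 9.01 to 133 CPM (median 103) in C57BL/6J and 231 to 956 CPM (median 479.8) in WSB/EiJ (log2 fold change 2.79, SE 0.35, adjusted p = 1.17e-10). Cyp8b1, which makes cholic acid, had 44.6 to 509 CPM (median 215) in C57BL/6J and 496 to 657 CPM (median 568) in WSB/EiJ (log2 fold change 1.51, adjusted p = 3.48e-06). For the uptake transporter Slco1a1, the values were 7.01 to 632 CPM (median 492) in C57BL/6J and 929 to 1072 CPM (median 1057) in WSB/EiJ, and the log2 fold change of 2.00 became 1.27 without C57BL/6J mouse 2, which had the lowest value. It was 1.99 (adjusted p = 0.064) in the fit of the 14 CD mice alone and 1.50 (adjusted p = 0.0762) with cohort 7 against cohort 2.

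**Figure D2:**
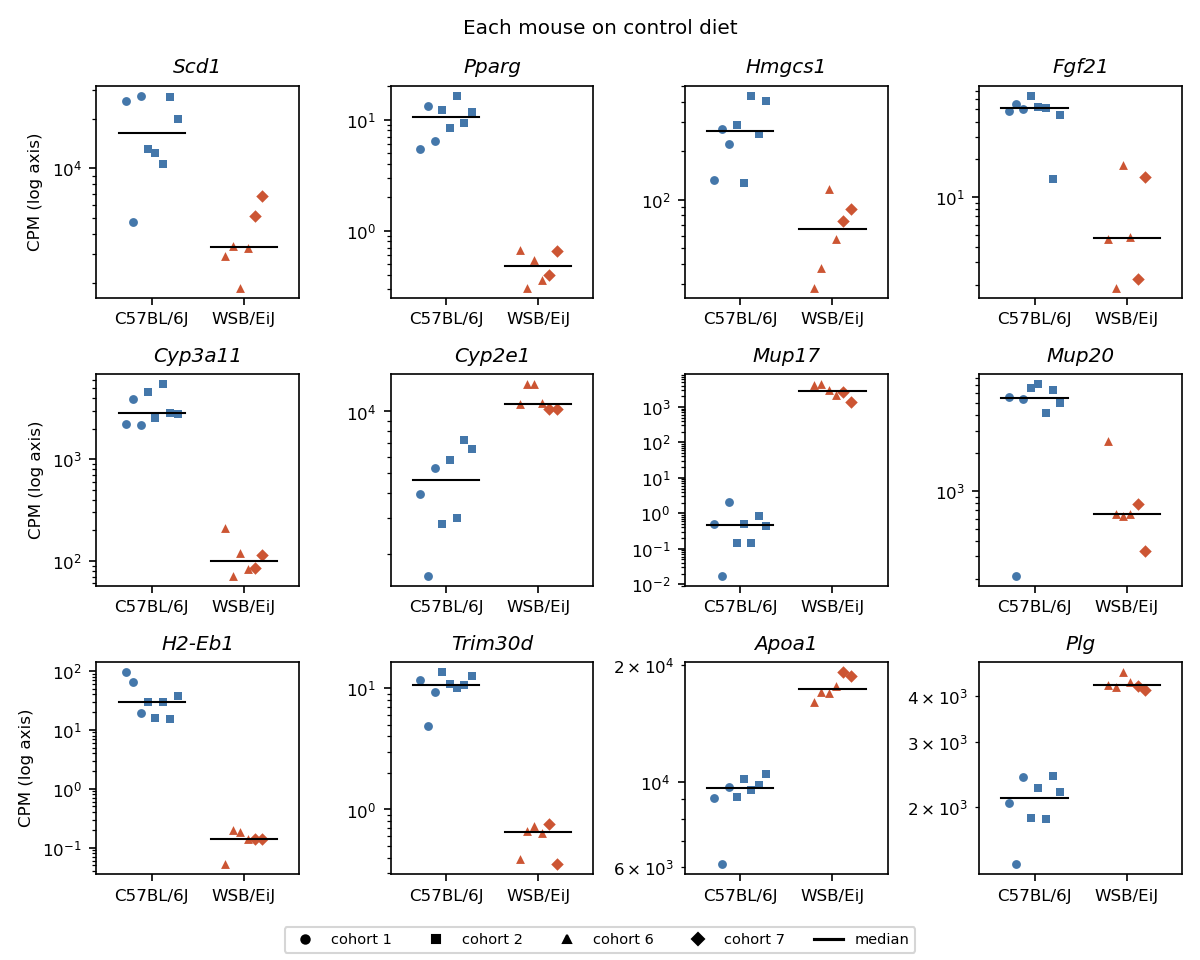
CPM of 12 genes in each CD mouse, on log axes that differ between panels, with C57BL/6J on the left and WSB/EiJ on the right of each panel, symbols for the cohort, and a line at the median. Pparg, Cyp3a11, H2-Eb1, and Mup17 separate the strains in every mouse, whereas Scd1, Fgf21, and Mup20 have 1 C57BL/6J mouse within or below the WSB/EiJ range.

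Secreted plasma proteins were higher in WSB/EiJ across several lists. Coagulation had 15 of 19 members called higher and 0 lower, with a median of 0.66. Plg, which encodes plasminogen, had 1393 to 2419 CPM (median 2119) in C57BL/6J and 4168 to 4657 CPM (median 4279.8) in WSB/EiJ (log2 fold change 1.10, SE 0.09, adjusted p = 1.01e-19). The ranges of F9, coagulation factor IX, and of Proz, protein Z, did not overlap either (log2 fold changes 0.79 and 0.85). For complement, 23 of 34 members were called higher in WSB/EiJ and 7 lower, with a median log2 fold change of 0.46. C4a, the sex-limited relative of complement C4, was at 2.24 to 49.0 CPM (median 11.6) in C57BL/6J and 206 to 559 CPM (median 398) in WSB/EiJ (log2 fold change 5.22, SE 0.33, adjusted p = 8.98e-25), while C1qc, a subunit made by macrophages, was lower (log2 fold change -1.24, adjusted p = 3.61e-08). C4a is nearly identical to C4b, so its reads are uncertain.

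Acute phase genes had 19 of 35 members called higher and 3 lower, or 62.9% called beside 53.8% of all genes tested. The metal-binding protein Mt1 had 7.34 to 74.1 CPM (median 13.1) in C57BL/6J and 141 to 777 CPM (median 330.1) in WSB/EiJ (log2 fold change 4.36, SE 0.53, adjusted p = 2.97e-11). Orm3, an orosomucoid, had 0.178 to 1.13 CPM (median 0.255) in C57BL/6J and 56.6 to 96.8 CPM (median 79.9) in WSB/EiJ (log2 fold change 7.83, adjusted p = 1.47e-13). Hamp2, the second hepcidin gene, was lower, at 2.12 to 30.4 CPM (median 10.3) in C57BL/6J and 0.262 to 0.442 CPM (median 0.283) in WSB/EiJ (log2 fold change -4.84, adjusted p = 2.15e-05). Serine protease inhibitors gave 18 higher and 6 lower of 30. Serpina3k, one of the most abundant 2-fold genes, had 2119 to 6814 CPM (median 4936) in C57BL/6J and 10147 to 16260.5 CPM (median 12759) in WSB/EiJ (log2 fold change 1.43, adjusted p = 6.68e-10). Serpina3c was at 0.274 to 0.722 CPM (median 0.483) in C57BL/6J and 62.1 to 89.3 CPM (median 68.4) in WSB/EiJ (log2 fold change 7.19, adjusted p = 2.08e-30). Serpina3g (-3.45) and Serpina1e (-2.99) were lower. Mug1, a protease inhibitor of the macroglobulin family, had 1292 to 3286 CPM (median 2726) in C57BL/6J and 7000.1 to 9633 CPM (median 8791) in WSB/EiJ (log2 fold change 1.86, adjusted p = 9.69e-19). Orm, Serpina1, and Serpina3 genes are families of close copies, and the counts of single members are uncertain where reads fit more than one.

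**Figure D3:**
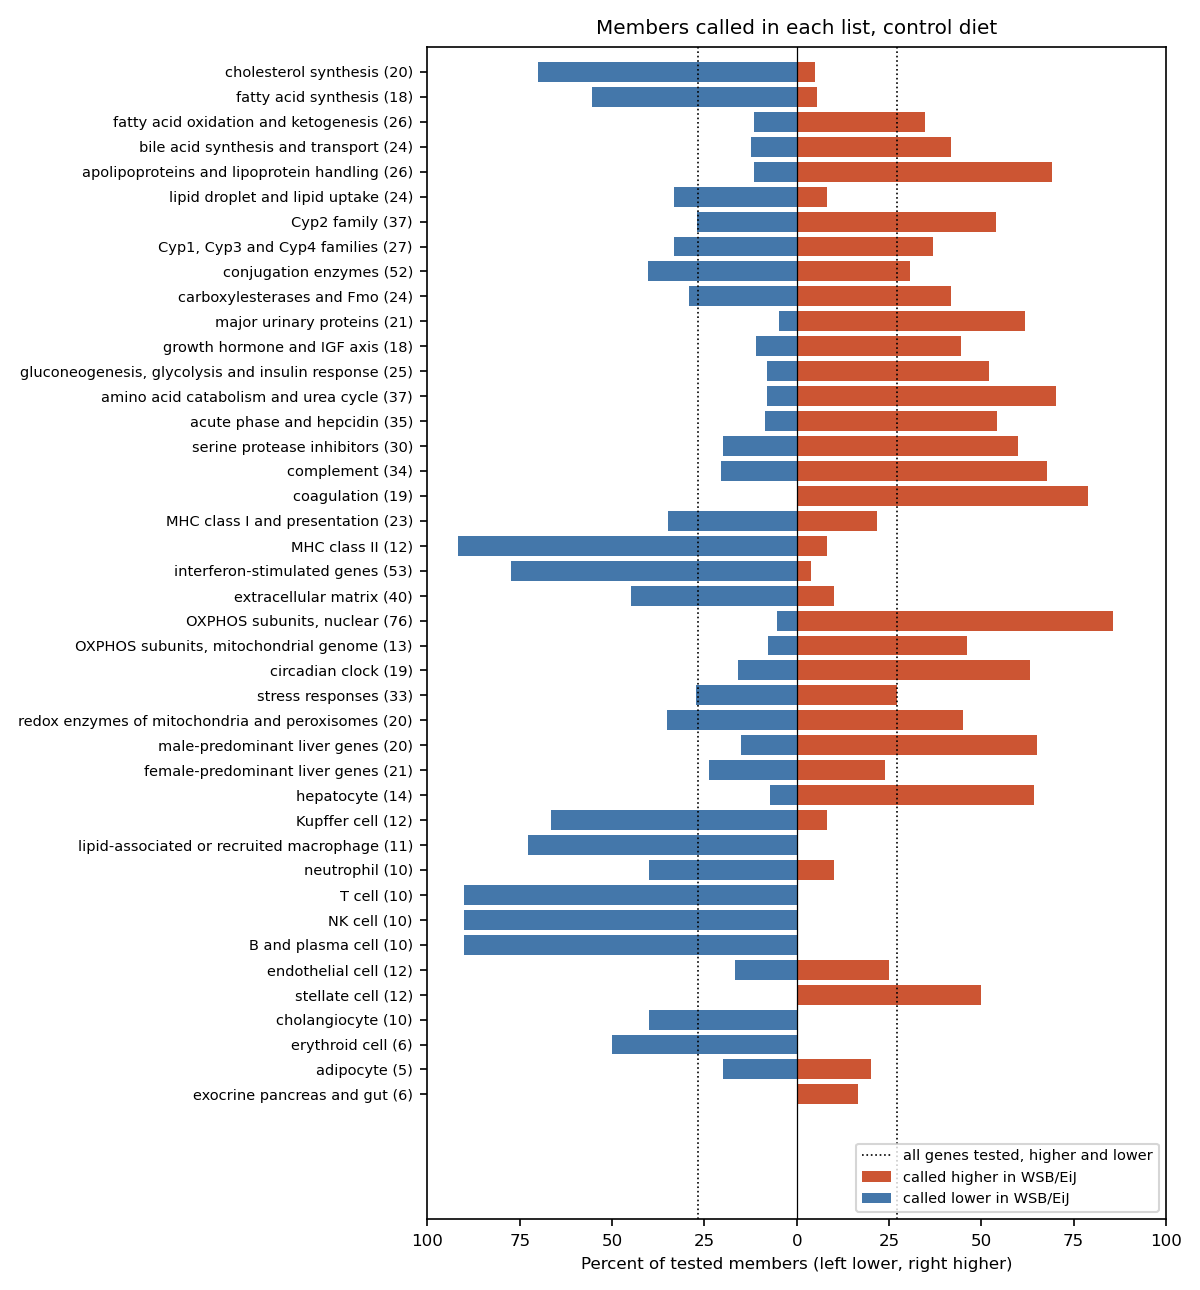
Percent of the tested members (number in brackets) of each gene list called higher in WSB/EiJ, to the right, or lower, to the left, on CD. Dotted lines mark the 27.1% higher and 26.7% lower among all genes tested, and coagulation and nuclear OXPHOS stand out to the right as MHC class II, interferon-stimulated genes, and lymphocyte markers do to the left.

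Drug-metabolizing enzymes differed in both directions, gene by gene. Cyp3a11, the main CYP3A enzyme of the mouse liver, was at 2179 to 5503 CPM (median 2816) in C57BL/6J and 70.7 to 209 CPM (median 99.8) in WSB/EiJ (log2 fold change -4.89, SE 0.24, adjusted p = 3.8e-32). Cyp2e1, which oxidizes ethanol and small solvents, was at 1563 to 7284 CPM (median 4619.9) in C57BL/6J and 10238 to 13656 CPM (median 10912) in WSB/EiJ (log2 fold change 1.49, SE 0.19, adjusted p = 1.5e-10). In the Cyp2 family, 20 of 37 members were called higher in WSB/EiJ and 10 lower, with a median log2 fold change of 0.68. Cyp2c38 had 58.6 to 150.3 CPM (median 82.8) in C57BL/6J and 0.234 to 59.0 CPM (median 5.97) in WSB/EiJ (log2 fold change -4.20, adjusted p = 4.79e-12), and its overlap came from WSB/EiJ mouse 6 with 59.0 CPM. Cyp2a22 had 1.41 to 15.6 CPM (median 3.89) in C57BL/6J and 50.1 to 63.9 CPM (median 56.6) in WSB/EiJ (log2 fold change 3.67, adjusted p = 1.79e-15). Cyp4a14, a fatty acid hydroxylase induced by PPARα ligands, had 391 to 2354 CPM (median 1477) in C57BL/6J and 7.42 to 405 CPM (median 59.2) in WSB/EiJ (log2 fold change -4.23, adjusted p = 2.56e-05). The log2 fold change of Cyp4a14 was -3.62 without WSB/EiJ mouse 5, and that of Cyp2c38 was -3.39 without WSB/EiJ mouse 1 and -4.96 without mouse 6. The Cyp1, Cyp3, and Cyp4 families together had 10 members higher and 9 lower of 27. In the Cyp families, and in the carboxylesterases below, the counts of single members are uncertain where reads fit several members.

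Conjugation enzymes gave 16 higher and 21 lower of 52. Ugt3a2, a sugar transferase, was at 172 to 351 CPM (median 327) in C57BL/6J and 30.9 to 36.6 CPM (median 33.7) in WSB/EiJ, with no overlap (log2 fold change -3.13, SE 0.10, adjusted p = 1.3e-45). Ugt1a9, a glucuronosyltransferase whose gene shares exons with the rest of the Ugt1a locus, had 15.4 to 43.2 CPM (median 18.5) in C57BL/6J and 132 to 202 CPM (median 183) in WSB/EiJ (log2 fold change 3.02, adjusted p = 2.17e-27). The glutathione transferase Gstm3 had 53.5 to 634 CPM (median 78.1) in C57BL/6J and 19.7 to 26.4 CPM (median 21.2) in WSB/EiJ (log2 fold change -2.67, adjusted p = 2.23e-09), and C57BL/6J mice 2, 4, and 6 held its 3 highest values (634, 512, and 412 CPM). Carboxylesterases and Fmo genes gave 10 higher and 7 lower of 24. On chromosome 8, Ces2h was at 0.319 to 0.852 CPM (median 0.690) in C57BL/6J and 115 to 143 CPM (median 121) in WSB/EiJ (log2 fold change 7.67, adjusted p = 7.56e-56). Ces2c of the same family was at 12.7 to 27.5 CPM (median 17.6) in C57BL/6J and 1.24 to 3.66 CPM (median 1.44) in WSB/EiJ (log2 fold change -3.46, adjusted p = 3.04e-09), and Ces1g, which hydrolyses lipid esters, was at 157 to 264 CPM (median 187) in C57BL/6J and 20.1 to 55.6 CPM (median 36.1) in WSB/EiJ (log2 fold change -2.43, adjusted p = 6.88e-14).

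Major urinary proteins, the pheromone carriers that the male liver secretes, included the largest increases of the comparison. In this list, 13 of 21 members were called higher in WSB/EiJ and 1 lower, with a median log2 fold change of 2.98. Without C57BL/6J mouse 2, 12 were called higher and 3 lower, with a median of 2.32. Mup17 had 0.0168 to 2.08 CPM (median 0.473) in C57BL/6J and 1394 to 4487 CPM (median 2797) in WSB/EiJ (log2 fold change 13.11, SE 0.93, adjusted p = 6.64e-22), and Mup12 had 0.0672 to 3.50 CPM (median 0.860) in C57BL/6J and 634 to 4051 CPM (median 2032) in WSB/EiJ (log2 fold change 11.42, SE 0.67, adjusted p = 9.52e-27). Mup7 was at 0 to 74.2 CPM (median 6.79) in C57BL/6J and 63.3 to 223 CPM (median 115) in WSB/EiJ, with a log2 fold change of 5.44 that became 4.10 without C57BL/6J mouse 2, the only mouse with 0 reads. Mup3 had 49.7 to 8551 CPM (median 5184) in C57BL/6J and 9873 to 12288 CPM (median 10346) in WSB/EiJ (log2 fold change 1.98, adjusted p = 0.000162), and its log2 fold change became 1.17 without mouse 2, 1.97 (adjusted p = 0.109) in the fit of the 14 CD mice alone, and 1.40 (adjusted p = 0.154) with cohort 7 against cohort 2. Mup20, the male pheromone darcin, was lower, at 209 to 7154 CPM (median 5511) in C57BL/6J and 333 to 2502 CPM (median 656) in WSB/EiJ (log2 fold change -2.33, adjusted p = 1.86e-07), and its difference became -2.92 without mouse 2, which had 209 CPM, and -1.05 (adjusted p = 0.101) with cohort 6 against cohort 1. The genes of this cluster on chromosome 4 are nearly identical, so the counts of single members are uncertain, and reads that mapped to several places were not counted on any gene.

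Among male-predominant liver genes, 13 of 20 members were called higher in WSB/EiJ and 3 lower, with a median log2 fold change of 1.41. Without C57BL/6J mouse 2, 11 were called higher and 5 lower, with a median of 0.97. The list summed to 1792 to 14520 CPM (median 12062) in C57BL/6J, lowest in mouse 2. In WSB/EiJ it summed to 6391 to 15399 CPM (median 9041). Selenbp2, a selenium-binding protein, had 15.4 to 47.1 CPM (median 38.9) in C57BL/6J and 274 to 1770.4 CPM (median 575) in WSB/EiJ (log2 fold change 4.19, SE 0.31, adjusted p = 5.11e-21). Hsd3b5, a male-specific 3-ketosteroid reductase, had 0.118 to 187 CPM (median 74.7) in C57BL/6J and 97.2 to 236 CPM (median 175) in WSB/EiJ (log2 fold change 2.81, adjusted p = 0.00178). With edgeR its log2 fold change was 1.25 (adjusted p = 0.0974), with DESeq2 it was 1.24 (adjusted p = 0.0998), and with limma-voom without C57BL/6J mouse 2 it was 1.67. In the fit of the 14 CD mice alone it was 2.79 (adjusted p = 0.105), and with cohort 7 against cohort 2 2.54 (adjusted p = 0.0631). Female-predominant genes gave 5 higher and 5 lower of 21 (47.6%, beside 53.8% of all genes tested), with a median of -0.76. Without C57BL/6J mouse 2 they gave 5 and 4, with a median of -0.05. Sult1e1, the estrogen sulfotransferase, had 0 to 3.85 CPM (median 0.0190) in C57BL/6J and 27.6 to 108 CPM (median 35.9) in WSB/EiJ (log2 fold change 9.88, SE 1.05, adjusted p = 2.64e-13), and its log2 fold change was 10.85 without mouse 2, the highest of C57BL/6J. Cyp2a4 had 4.60 to 419 CPM (median 12.2) in C57BL/6J and 0.0520 to 0.330 CPM (median 0.186) in WSB/EiJ (log2 fold change -7.11, adjusted p = 0.00703), and the highest C57BL/6J values were in mice 2 (419 CPM) and 6 (282 CPM). Its near copy Cyp2a5 had 95.3 to 557 CPM (median 321) in C57BL/6J and 94.5 to 166 CPM (median 107) in WSB/EiJ (log2 fold change -1.18, adjusted p = 0.0151), so the split of reads between them is uncertain. The log2 fold change of Cyp2a4 was -6.52 without mouse 2 and -7.11 (adjusted p = 0.0899) in the fit of the 14 CD mice alone, and with cohort 7 against cohorts 1 and 2 it was -7.35 (adjusted p = 0.149) and -7.19 (adjusted p = 0.161). Cyp2a5 was at -0.68 (adjusted p = 0.192) and -0.43 (adjusted p = 0.548) with cohorts 6 and 7 against cohort 1, and at -1.03 (adjusted p = 0.0501) with sample quality weights.

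Growth hormone and IGF genes gave 8 higher and 2 lower of 18, so 55.6% were called, near the 53.8% of all genes tested. Igf1, the growth factor the liver releases under growth hormone, had 384 to 549 CPM (median 459) in C57BL/6J and 746 to 944 CPM (median 797) in WSB/EiJ (log2 fold change 0.82, SE 0.12, adjusted p = 5.57e-09). Igfals, which stabilizes IGF in plasma, had 41.8 to 95.7 CPM (median 54.0) in C57BL/6J and 121 to 150.1 CPM (median 125) in WSB/EiJ (log2 fold change 1.16, adjusted p = 6.89e-11), and the binding protein Igfbp4 had 763 to 1387 CPM (median 931) in C57BL/6J and 1955 to 2547 CPM (median 2105) in WSB/EiJ (log2 fold change 1.12, adjusted p = 4.48e-22). None of these 3 genes had overlapping ranges.

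MHC class II and interferon-stimulated genes were lower in WSB/EiJ. MHC class II genes present peptides on macrophages, dendritic cells, and B cells, and of 12 members 11 were called lower and 1 higher, with a median of -2.09. H2-Eb1, the class II Eβ chain, was at 15.1 to 95.6 CPM (median 29.4) in C57BL/6J and 0.0520 to 0.203 CPM (median 0.142) in WSB/EiJ (log2 fold change -7.74, SE 1.04, adjusted p = 1.02e-09). H2-Ea-ps, the Eα gene that is a pseudogene in the C57BL/6J haplotype, was the exception, at 0 to 0.0412 CPM (median 0) in C57BL/6J and 7.44 to 11.6 CPM (median 8.97) in WSB/EiJ (log2 fold change 9.41, adjusted p = 2.68e-15). Most C57BL/6J mice had no read of H2-Ea-ps, so the size of its fitted difference depends on the prior count. H2-Ab1 had 21.3 to 117 CPM (median 37.0) in C57BL/6J and 6.08 to 16.2 CPM (median 11.8) in WSB/EiJ (log2 fold change -1.85, adjusted p = 1.57e-07), and H2-DMb1, which loads class II peptides, had 2.48 to 14.9 CPM (median 5.57) in C57BL/6J and 0.468 to 1.01 CPM (median 0.616) in WSB/EiJ (log2 fold change -3.05, adjusted p = 3.19e-09). MHC class I and presentation gave 8 lower and 5 higher of 23 (56.5% called, beside 53.8% of all genes tested), with H2-D1 at 381 to 697 CPM (median 454) in C57BL/6J and 140.4 to 188 CPM (median 156) in WSB/EiJ (log2 fold change -1.59, adjusted p = 4.02e-26) and H2-Q6 at a log2 fold change of -2.11. The strains differ in haplotype at this locus on chromosome 17 and all reads were mapped to the C57BL/6J haplotype, so the counts of single class I and class II genes are uncertain. The part of mapping in these differences was not tested.

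Interferon-stimulated genes, which restrict viruses and intracellular bacteria, had 41 of 53 members called lower and 2 higher (median -1.14). The share called was 81.1%, beside 53.8% of all genes tested. The ranges of 27 of the 53 members did not overlap, beside 21.9% of all genes tested. Trim30d was at 4.92 to 13.6 CPM (median 10.7) in C57BL/6J and 0.352 to 0.756 CPM (median 0.650) in WSB/EiJ (log2 fold change -4.12, SE 0.29, adjusted p = 5.19e-22). Ly6a, a surface protein of endothelial and lymphoid cells, was at 6.51 to 23.9 CPM (median 11.9) in C57BL/6J and 0.523 to 1.34 CPM (median 1.01) in WSB/EiJ (log2 fold change -3.59, adjusted p = 9.01e-07). Ifi204, a DNA sensor of the Ifi200 cluster, had 10.6 to 20.9 CPM (median 13.9) in C57BL/6J and 1.43 to 1.99 CPM (median 1.67) in WSB/EiJ (log2 fold change -3.08, adjusted p = 2.59e-23), and Mndal of the same cluster had 13.6 to 20.2 CPM (median 18.6) in C57BL/6J and 0.119 to 0.254 CPM (median 0.174) in WSB/EiJ (log2 fold change -6.54, adjusted p = 1.79e-34). Ifi202b, also of that cluster, went the other way, at 0 to 0.0730 CPM (median 0) in C57BL/6J and 2.38 to 2.75 CPM (median 2.58) in WSB/EiJ (log2 fold change 7.28, adjusted p = 1.98e-22), a size that likewise depends on the prior count. Members of the Ifi200 cluster are close copies and Mndal overlaps Ifi203, so their counts are uncertain. On WD, 46 members were called lower and 1 higher.

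Markers of immune cells were also lower. Of the T cell, NK cell, and B and plasma cell markers, 9 of 10 each were called lower and none higher. NK cell markers summed to 3.76 to 11.6 CPM in C57BL/6J and 0.665 to 2.13 CPM in WSB/EiJ, with no overlap. T cell markers summed to 4.66 to 10.1 CPM and 2.03 to 6.44 CPM, and B and plasma cell markers to 24.0 to 94.2 CPM and 10.6 to 27.0 CPM, both with overlap. None of these markers was at 0 in all mice of a strain. Kupffer cell markers gave 8 lower and 1 higher of 12, with sums of 492 to 884 CPM and 413 to 596 CPM. Cd5l was the most abundant of those not called (log2 fold change -0.32, adjusted p = 0.233). Its ranges overlapped, at 73.7 to 158.7 CPM in C57BL/6J and 66.2 to 100.2 CPM in WSB/EiJ. The scavenger receptor Marco had 5.97 to 62.5 CPM (median 11.1) in C57BL/6J and 0.517 to 0.987 CPM (median 0.661) in WSB/EiJ (log2 fold change -4.23, SE 0.81, adjusted p = 6.84e-06), Adgre1, which encodes F4/80, had 16.8 to 38.4 CPM (median 28.4) in C57BL/6J and 6.86 to 8.06 CPM (median 7.25) in WSB/EiJ (log2 fold change -1.82, adjusted p = 1.32e-08), and the complement subunit C1qa had 35.9 to 73.1 CPM (median 58.2) in C57BL/6J and 21.2 to 30.9 CPM (median 25.7) in WSB/EiJ (log2 fold change -1.05, adjusted p = 1.35e-06). Of the markers of lipid-associated or recruited macrophages, 8 of 11 were called lower and none higher, and 7 were lower and 1 higher without C57BL/6J mouse 2. Their sums in C57BL/6J and WSB/EiJ were 106 to 1287 CPM and 102 to 218 CPM. Among these, Cd9 had 29.1 to 55.4 CPM (median 41.5) in C57BL/6J and 5.49 to 10.97 CPM (median 7.05) in WSB/EiJ (log2 fold change -2.52, adjusted p = 6.39e-19) and Spp1, which encodes osteopontin, had 32.7 to 369 CPM (median 42.0) in C57BL/6J and 11.2 to 18.8 CPM (median 15.4) in WSB/EiJ (log2 fold change -2.05, adjusted p = 1.86e-07). Lpl went the other way in most mice. It had 65.2 to 164 CPM in WSB/EiJ and 23.9 to 440 CPM in C57BL/6J, where mouse 2 held the highest value. Most C57BL/6J mice, at 23.9 to 52.7 CPM, lay under the WSB/EiJ range. The part of these cell types in the lower MHC class II and interferon-stimulated genes was not tested.

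Markers of other cell types went in both directions. The lists of this paragraph had 16.7% to 55% of their members called, beside 53.8% of all genes tested. Stellate cell markers had 6 of 12 members called higher and 0 lower. Endothelial markers gave 3 higher and 2 lower of 12, or 2 and 5 without C57BL/6J mouse 2, and cholangiocyte markers 4 lower of 10. Extracellular matrix genes gave 4 higher and 18 lower of 40, and without C57BL/6J mouse 2 these numbers were 6 and 11. Cela1, a pancreatic elastase gene, was higher in all WSB/EiJ mice, at 4.23 to 7.43 CPM (median 5.70) in C57BL/6J and 26.5 to 154 CPM (median 31.5) in WSB/EiJ (log2 fold change 2.87, adjusted p = 5.1e-08), and mouse 5 held the highest value. It was the only one of 6 exocrine pancreas and gut markers that was called. Neutrophil markers gave 1 higher and 4 lower of 10, erythroid markers 3 lower of 6, and adipocyte markers 1 in each direction of 5.

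Subunits of the mitochondrial respiratory chain were higher in WSB/EiJ by small amounts. Of 76 nuclear OXPHOS subunits, 65 were called higher and 4 lower, with a median log2 fold change of 0.34. With upper-quartile scaling 57 were called higher and 4 lower, with a median of 0.27. Ndufa12 of complex I had 21.5 to 26.5 CPM (median 23.1) in C57BL/6J and 41.5 to 45.5 CPM (median 43.5) in WSB/EiJ (log2 fold change 0.89, SE 0.07, adjusted p = 2.31e-20). Sdhb of complex II had 112 to 165 CPM (median 127) in C57BL/6J and 208 to 247 CPM (median 241) in WSB/EiJ (log2 fold change 0.80, adjusted p = 4.54e-17). Cox7a2l, a factor that joins complexes III and IV, was lower, at 59.3 to 86.6 CPM (median 73.6) in C57BL/6J and 46.3 to 48.3 CPM (median 48.0) in WSB/EiJ (log2 fold change -0.61, adjusted p = 2.5e-15). Of 13 subunits encoded by mitochondrial DNA, 6 were called higher and 1 lower, or 53.8% called, the same share as among all genes tested. The subunit mt-Co1 had 18101 to 26425 CPM (median 21584) in C57BL/6J and 26353 to 34982 CPM (median 30778) in WSB/EiJ (log2 fold change 0.47, adjusted p = 1.72e-07), with 0.29 (adjusted p = 0.0662) for cohort 7 against cohort 1. On WD, 50 nuclear subunits were called higher and 4 lower.

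Enzymes of amino acid catabolism and the urea cycle had 26 of 37 members called higher and 3 lower (median 0.61). Csad, Oat, and Bhmt were the 3 called lower. Csad, which makes the taurine precursor hypotaurine, had 159 to 440.4 CPM (median 356) in C57BL/6J and 15.9 to 23.6 CPM (median 18.5) in WSB/EiJ (log2 fold change -4.09, SE 0.25, adjusted p = 3.74e-25), and Oat, ornithine aminotransferase, had 262 to 781 CPM (median 417) in C57BL/6J and 129.6 to 238 CPM (median 149.6) in WSB/EiJ (log2 fold change -1.35, adjusted p = 4.67e-09). Sds, serine dehydratase, had 38.5 to 106 CPM (median 54.5) in C57BL/6J and 122 to 288 CPM (median 199.7) in WSB/EiJ (log2 fold change 1.69, adjusted p = 9.83e-10). Genes of gluconeogenesis, glycolysis, and insulin response gave 13 higher and 2 lower of 25, or 60% called beside 53.8% of all genes tested. Pck2, the mitochondrial PEP carboxykinase, was lower, at 6.90 to 16.4 CPM (median 8.16) in C57BL/6J and 1.95 to 2.67 CPM (median 2.25) in WSB/EiJ (log2 fold change -2.01, adjusted p = 1.66e-14). Redox enzymes of mitochondria and peroxisomes gave 9 higher and 7 lower of 20. Stress response genes gave 9 in each direction of 33, or 54.5% called beside 53.8% of all genes tested.

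Circadian clock genes differed on CD. In the feedback loop of the clock, CLOCK or NPAS2 with BMAL1 (encoded by Arntl) drives Per, Cry, Dbp, Ciart, and Bhlhe41 through E-boxes, and DBP, TEF, and HLF act on D-boxes, which NFIL3 represses. The liver runs this loop with a daily rhythm. The promoters of Ciart and Bhlhe41, the clock genes with the largest differences, are shown with the E-box CACGTG in capitals, and that of Per3 with the D-box letters TTATGTAA or TTACGTAA in capitals, each as 250 bases before the start, 5′ to 3′, minus strand (RefSeq, GRCm38.p6, in order chr3:95882229-95882478, chr6:145865421-145865670, and chr4:151044666-151044915):
Ciart: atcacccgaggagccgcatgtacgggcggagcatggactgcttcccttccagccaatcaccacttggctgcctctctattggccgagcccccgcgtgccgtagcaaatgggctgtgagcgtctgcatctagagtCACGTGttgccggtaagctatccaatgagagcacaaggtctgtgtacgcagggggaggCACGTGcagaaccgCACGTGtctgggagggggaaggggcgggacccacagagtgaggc
Bhlhe41: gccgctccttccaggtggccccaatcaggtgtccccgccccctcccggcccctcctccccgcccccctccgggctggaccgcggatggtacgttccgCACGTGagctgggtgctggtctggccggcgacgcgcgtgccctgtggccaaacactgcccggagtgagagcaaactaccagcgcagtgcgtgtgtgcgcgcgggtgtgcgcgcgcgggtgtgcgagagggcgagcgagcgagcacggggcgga
Per3: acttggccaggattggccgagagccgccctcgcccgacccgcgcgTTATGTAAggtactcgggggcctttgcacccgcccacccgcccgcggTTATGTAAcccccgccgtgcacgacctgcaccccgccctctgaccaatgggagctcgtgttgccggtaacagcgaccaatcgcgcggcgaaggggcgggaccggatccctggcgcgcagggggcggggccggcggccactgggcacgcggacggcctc
The E-box was searched on both strands and, being a palindrome, reads the same on each. It occurred in the windows of 5 of the 16 clock genes with a window (Bhlhe41, Ciart, Cry1, Per1, and Tef), in 6.86% of all 27025 genes with a window, and in 6.02% of all 32851 windows. Either D-box occurred in 1 of the 16 clock genes, Per3, in 1.1% of all genes with a window, and in 0.931% of all windows. A match is a description of the reference and not a test of binding.

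Of 19 clock genes, 12 were called higher in WSB/EiJ and 3 lower, with a median log2 fold change of 1.05. Ciart, a repressor of the loop with 3 E-boxes in the sequence above, had 0.255 to 9.68 CPM (median 1.40) in C57BL/6J and 6.84 to 20.3 CPM (median 14.9) in WSB/EiJ (log2 fold change 3.27, SE 0.51, adjusted p = 6.98e-08). The repressor Bhlhe41 had 0.334 to 5.82 CPM (median 1.42) in C57BL/6J and 7.98 to 16.1 CPM (median 11.6) in WSB/EiJ (log2 fold change 3.04, SE 0.32, adjusted p = 9.85e-14), with no overlap. Per3, the period gene with 2 D-boxes above, had 2.31 to 48.5 CPM (median 10.8) in C57BL/6J and 29.3 to 94.6 CPM (median 52.3) in WSB/EiJ (log2 fold change 2.50, adjusted p = 6.12e-10), Per1 had 7.75 to 17.4 CPM (median 13.3) in C57BL/6J and 25.1 to 58.1 CPM (median 49.2) in WSB/EiJ (log2 fold change 1.79, adjusted p = 2.1e-05), and Per2 had 7.17 to 24.0 CPM (median 9.44) in C57BL/6J and 24.2 to 60.1 CPM (median 40.4) in WSB/EiJ (log2 fold change 1.88, adjusted p = 2.68e-11). Dbp had 0.823 to 104 CPM (median 27.7) in C57BL/6J and 61.5 to 140.0 CPM (median 97.4) in WSB/EiJ (log2 fold change 2.58, adjusted p = 5.24e-07), and its difference was 1.93 without C57BL/6J mouse 2. Npas2 was lower, at 0.422 to 17.8 CPM (median 2.09) in C57BL/6J and 0.143 to 3.43 CPM (median 0.542) in WSB/EiJ (log2 fold change -2.37, adjusted p = 0.00314), and Nr1d1, which encodes REV-ERBα, had 8.50 to 142 CPM (median 109) in C57BL/6J and 103 to 177 CPM (median 139.6) in WSB/EiJ (adjusted p = 0.104). Per1, Per2, Per3, and Npas2 were chosen for the text after their values were seen.

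The C57BL/6J cohorts lay apart in some of these genes. Dbp was at 0.823, 4.93, and 5.42 CPM in the 3 mice of cohort 1, and at 16.5 to 104 CPM in the 5 mice of cohort 2. Npas2 was at 10.8 to 17.8 CPM in cohort 1 and 0.422 to 2.23 CPM in cohort 2. Against WSB/EiJ cohort 6, the log2 fold change of Dbp was 5.14 with C57BL/6J cohort 1 and 1.04 with cohort 2, and that of Npas2 was -5.08 and -1.65. With cohort 7 against cohort 2, Npas2 was at 0.03 (adjusted p = 0.979), and in the fit of the 14 CD mice alone at -2.37 (adjusted p = 0.112). On WD, 7 clock genes were called higher and none lower, and the strain difference was called different between diets for 8 of the 19, against 2.58% of all genes. The C57BL/6J mice were divided between cohorts 1 and 2 differently on WD than on CD, and that fit had no cohort term. The part of cohort in these interactions was not tested. For Per2 the log2 fold change was 1.88 on CD and 0.18 on WD (interaction -1.70, adjusted p = 0.0002). The hour of death of single mice is not given in the sources used here, and its part in these values was not tested.

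**Figure D4:**
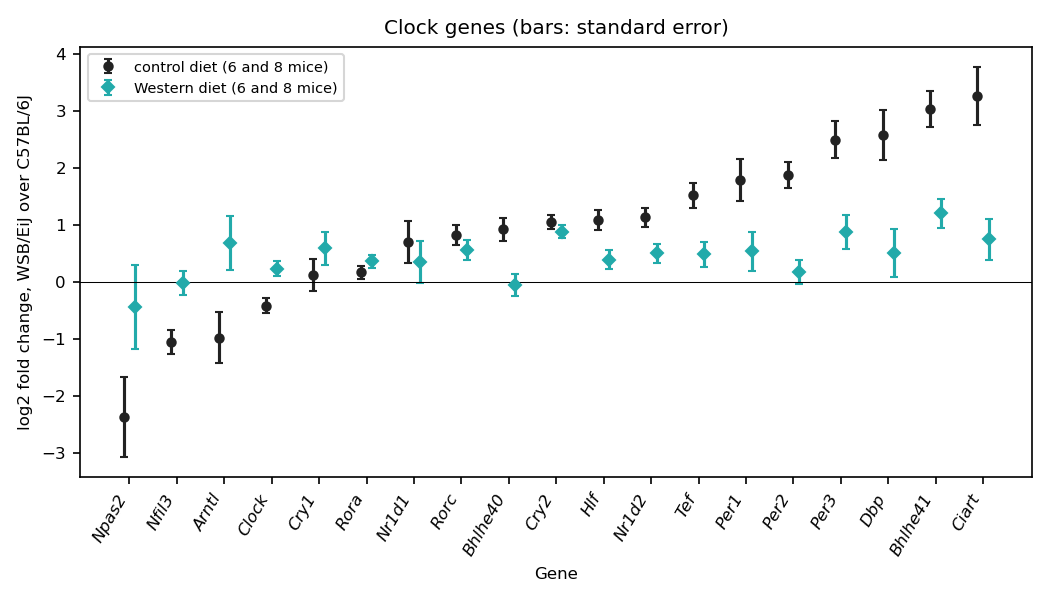
Log2 fold change of WSB/EiJ over C57BL/6J (y axis, bars are standard errors) of the 19 clock genes (x axis), on CD as circles and on WD as diamonds. On CD the values run from -2.37 for Npas2 to 3.27 for Ciart, and on WD they lie nearer to 0 for the genes at both ends.

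The largest differences with no overlap were then placed among the other 5 strains on CD, by testing WSB/EiJ and C57BL/6J each against the mean of those 5. By this test 9169 genes (48.0%) were called in WSB/EiJ and 10787 (56.4%) in C57BL/6J. Both contrasts share the 5 strains, so the values of each gene stand side by side. Gm4788, a relative of complement factor H, was at 175 to 362 CPM (median 307) in C57BL/6J and 1.69 to 2.17 CPM (median 1.73) in WSB/EiJ (log2 fold change -7.28, SE 0.15, adjusted p = 6.06e-59) and its means in the other 5 strains were 286 to 379 CPM. WSB/EiJ differed from them by -7.47 (adjusted p = 1.11e-61) and C57BL/6J by -0.19 (adjusted p = 0.00504). Col5a2, a fibrillar collagen chain, had 2.32 to 26.1 CPM (median 3.51) in C57BL/6J and 103 to 383 CPM (median 268) in WSB/EiJ (log2 fold change 5.66, SE 0.35, adjusted p = 3.96e-25), with 5.67 (adjusted p = 1.82e-32) for WSB/EiJ and 0.01 (adjusted p = 0.98) for C57BL/6J. The mean of Col5a2 was 38.1 CPM in PWK/PhJ, above the C57BL/6J range, and 2.16 to 5.66 CPM in the rest of the 5 strains. Cenpm, a centromere protein, had 0.157 to 2.94 CPM (median 0.522) in C57BL/6J and 30.3 to 40.2 CPM (median 34.3) in WSB/EiJ (log2 fold change 5.88, adjusted p = 1.35e-33), with 5.26 (adjusted p = 2.77e-48) and -0.62 (adjusted p = 0.0544). Ddah1, which degrades methylated arginines, had 109.7 to 225 CPM (median 206) in C57BL/6J and 2.42 to 18.8 CPM (median 4.28) in WSB/EiJ (log2 fold change -5.24, adjusted p = 2.93e-38), with -4.40 (adjusted p = 1.45e-35) and 0.84 (adjusted p = 1.46e-10). For H2-Eb1, the mean was 1.18 CPM in PWK/PhJ and 22.7 to 25.8 CPM in the other 4, beside 0.144 CPM in WSB/EiJ, with differences from the 5 of -6.44 (adjusted p = 1.96e-07) for WSB/EiJ and 1.30 (adjusted p = 1.44e-07) for C57BL/6J. The receptor subunit Chrna4 had 4.11 to 37.9 CPM (median 17.2) in C57BL/6J and 0 to 2.19 CPM (median 0.241) in WSB/EiJ (log2 fold change -6.19, adjusted p = 0.000161), with a mean of 1.66 CPM in CAST/EiJ, and its log2 fold change was -5.43 without WSB/EiJ mouse 1 and -2.22 (adjusted p = 0.0566) with cohort 7 against cohort 2. Against the other 5 strains, Chrna4 differed by -5.81 (adjusted p = 0.000431) in WSB/EiJ and 0.38 (adjusted p = 0.338) in C57BL/6J. Gpc1, a heparan sulfate proteoglycan, had 10.3 to 29.6 CPM (median 22.1) in C57BL/6J and 0.638 to 1.74 CPM (median 1.00) in WSB/EiJ (log2 fold change -4.37, adjusted p = 2.23e-13) and means of 1.93 to 23.6 CPM in the other 5 strains, of which 129S1/SvImJ was nearest to WSB/EiJ, with differences of -3.05 (adjusted p = 2.83e-08) and 1.32 (adjusted p = 1.97e-10).

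Pttg1 and Pparg had their highest mean in C57BL/6J. Pttg1, the securin of sister chromatids, had 16.5 to 26.6 CPM (median 23.2) in C57BL/6J and 0.523 to 0.987 CPM (median 0.729) in WSB/EiJ (log2 fold change -4.95, SE 0.20, adjusted p = 4.09e-38), and its means in the other 5 strains were 0.797 to 2.36 CPM. C57BL/6J differed from them by 4.01 (adjusted p = 2.01e-58) and WSB/EiJ by -0.94 (adjusted p = 6.27e-05). Pparg followed this pattern, with means of 0.290 to 2.72 CPM in the other 5 strains and differences of 3.44 (adjusted p = 9.92e-20) for C57BL/6J and -0.93 (adjusted p = 0.209) for WSB/EiJ. Dhrs9, a retinol and steroid dehydrogenase, had 3.25 to 41.2 CPM (median 15.4) in C57BL/6J and 0.214 to 0.987 CPM (median 0.370) in WSB/EiJ (log2 fold change -4.94, adjusted p = 4.69e-09), with 10.2 CPM in DBA/2J, within the C57BL/6J range, and at most 0.865 CPM in the other 4 strains. C57BL/6J differed from the mean of the 5 by 4.15 (adjusted p = 9.82e-19) and WSB/EiJ by -0.80 (adjusted p = 0.389).

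For genes with large increases in WSB/EiJ, the other strains lay on either side. Ceacam2, an adhesion molecule of the Ceacam family, had 0.138 to 0.420 CPM (median 0.214) in C57BL/6J and 67.5 to 77.0 CPM (median 68.4) in WSB/EiJ (log2 fold change 8.29, SE 0.20, adjusted p = 2.21e-54), with 79.5 CPM in CAST/EiJ, 41.6 in PWK/PhJ, and at most 3.09 in the other 3. WSB/EiJ differed from the 5 by 3.61 (adjusted p = 3.38e-59) and C57BL/6J by -4.68 (adjusted p = 8.98e-36). Its near copy Ceacam1 had 126 to 212 CPM (median 181) in C57BL/6J and 130.2 to 153 CPM (median 139) in WSB/EiJ (log2 fold change -0.29, adjusted p = 0.000412), so reads of Ceacam2 are uncertain. Ces2h was also higher in those strains, with 78.1 and 125 CPM in CAST/EiJ and PWK/PhJ and at most 1.65 in the other 3, and differences of 4.10 (adjusted p = 2.83e-60) for WSB/EiJ and -3.56 (adjusted p = 7.94e-32) for C57BL/6J. Mup12 had 6708 CPM in CAST/EiJ but 1.14 in PWK/PhJ, with differences of 5.32 (adjusted p = 3.47e-26) for WSB/EiJ and -6.11 (adjusted p = 6.55e-14) for C57BL/6J. Ctse, an aspartic protease, had 0.309 to 0.693 CPM (median 0.404) in C57BL/6J and 33.1 to 61.0 CPM (median 41.9) in WSB/EiJ (log2 fold change 6.57, adjusted p = 1.02e-29), with 76.5 CPM in 129S1/SvImJ, 58.8 in DBA/2J, and at most 3.52 in the rest. Its differences from the 5 were 2.58 (adjusted p = 2.74e-27) for WSB/EiJ and -3.98 (adjusted p = 2.09e-17) for C57BL/6J. Gm4737, a gene model on chromosome 16, had 3.46 to 9.32 CPM (median 5.15) in C57BL/6J and 360.0 to 548 CPM (median 468) in WSB/EiJ (log2 fold change 6.33, adjusted p = 1.35e-52) and means of 6.04 to 380.2 CPM in the other 5 strains, with differences of 3.50 (adjusted p = 5.53e-44) for WSB/EiJ and -2.83 (adjusted p = 9.2e-33) for C57BL/6J.

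**Figure D5:**
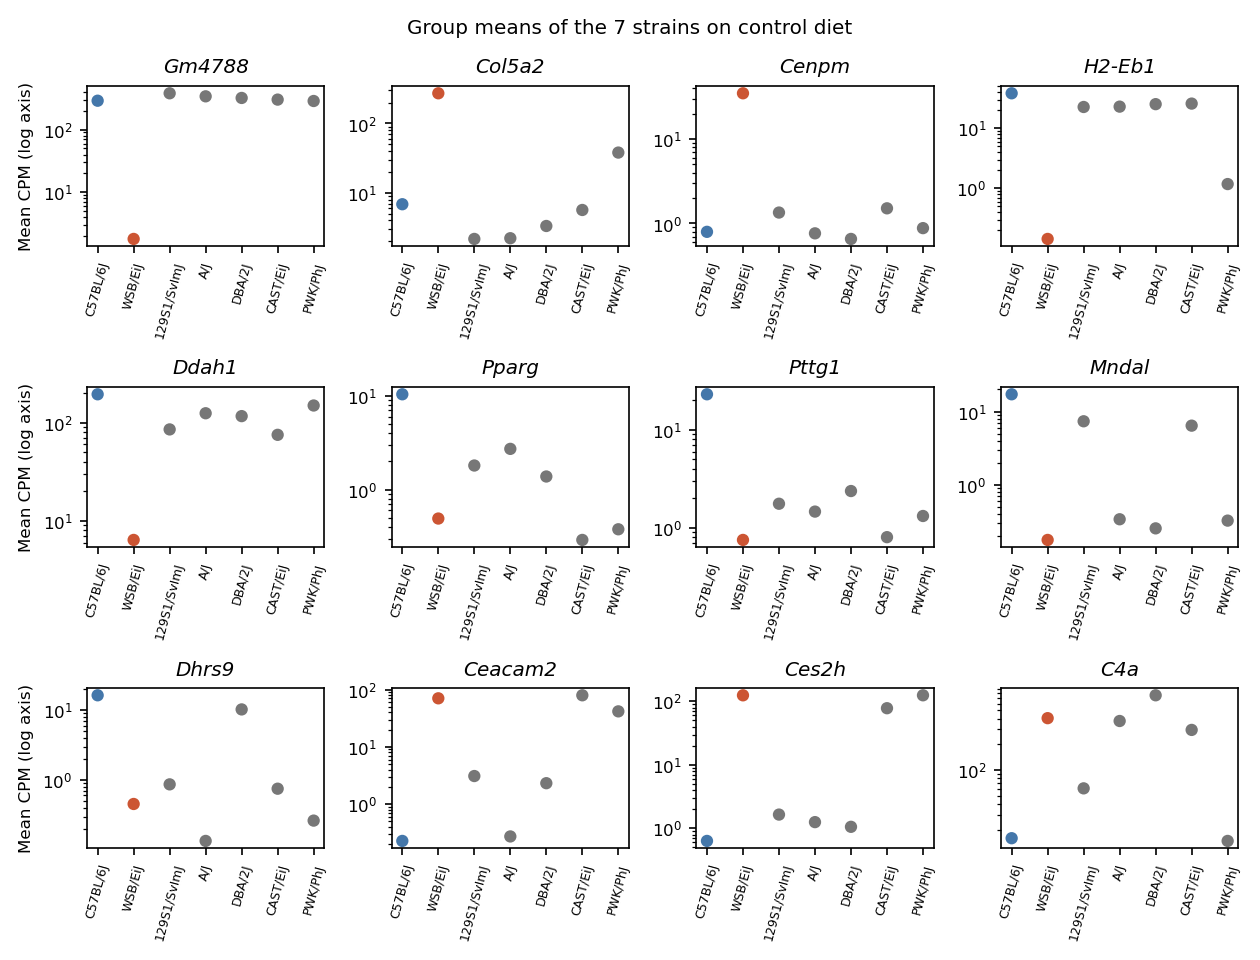
Mean CPM on CD of 12 genes in the 7 strains (points, on log axes that differ between panels), with C57BL/6J and WSB/EiJ coloured and the other 5 in grey. WSB/EiJ is the only strain near 1.81 CPM of Gm4788 and near 34.9 CPM of Cenpm, C57BL/6J holds the highest mean of Pttg1 and Pparg, and Ceacam2 and Ces2h are high in all 3 wild-derived strains.

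Some strain differences differed in size between CD and WD. As with the clock genes above, the fit had no cohort term, and the part of cohort in these interactions was not tested. Cyp3a11 was at -4.89 on CD and -2.61 on WD (interaction 2.28, adjusted p = 4.91e-06), Ddah1 at -5.24 and -2.29 (interaction 2.96, adjusted p = 5.68e-15), and Csad at -4.09 and -2.33 (interaction 1.76, adjusted p = 0.00105). In these 3 genes the deficit of WSB/EiJ was smaller on WD. Cd36 was at -1.34 on CD and -2.48 on WD (interaction -1.14, adjusted p = 0.0227), and Cidec at -1.92 and -5.07 (interaction -3.15, adjusted p = 0.0257), so that their deficit in WSB/EiJ was larger on WD. For Pparg, Gm4788, H2-Eb1, and Ceacam2 the values on WD were -4.41, -7.04, -7.82, and 8.21, and no interaction was called.

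With 0 reads in each mouse of 1 strain and at least 10 reads in each mouse of the other, 10 genes were at 0 in C57BL/6J and 11 in WSB/EiJ. None of the first and 2 of the second were annotated as protein-coding. Hba-a2, 1 of the 2 α-globin genes, had 0 reads in all WSB/EiJ mice on CD, at most 1 read in those on WD, and 99 to 675 in C57BL/6J, at least 68.9-fold higher against a floor of 3 reads per library, and its reads are uncertain because Hba-a1 is nearly identical. Olfr1034, an olfactory receptor gene, had 0 reads in WSB/EiJ and 140 to 618 in C57BL/6J, at least 59.6-fold higher. Both genes were named after their values were seen, as were Ifi202b, H2-Ea-ps, Ceacam1, Cyp2a5, Plin2, Fasn, Ebp, Igf1, Mup20, and Sult1e1.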

How the data were processed

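Whole liver RNA of 93 mice was sequenced, and the authors deposited 1 table of read counts per gene, made by mapping to the C57BL/6J genome (GRCm38/mm10) with STAR 2.7.1a per the submitters' processing notes. The annotation release and the strand setting of the counting are not given in the sources used here. The 4 rows that name no gene (unmapped, multimapping, no feature, ambiguous) gave library shares and were left out of library sizes and tests. All 93 columns were used. Reads on genes numbered 45135933 to 49648938 per CD mouse of the 2 strains.

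Genes were kept by filterByExpr of edgeR 4.0.16 (minimum count 10), which left 19110, scaled with TMM factors, and tested with limma-voom (limma 3.58.1) in 1 fit of 14 group means over all 93 mice. P-values were adjusted by the Benjamini-Hochberg method over all genes tested, with a threshold of 0.05. A replicate is a mouse. Read shares were compared with an exact permutation test, two-sided, over 3003 regroupings and 4 shares. No 2 libraries had identical counts. The code was tested on simulated data.

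Genes named are Nnt, Ddx3y, and Xist as checks, the 12 largest increases and decreases among called protein-coding genes without overlap and with mean log2 CPM not under 1, the 6 most abundant called genes with a 2-fold difference, and up to 3 called members and the most abundant member that was not called from each of 42 lists, 29 of pathways and 13 of cell types. Not every candidate is described, 1 gene is not reported here, and exceptions are given as such. The members and lists were chosen with earlier results of these data known. Alternatives were edgeR, DESeq2 1.42.0, other scaling, filters, weights, covariates and samples, cohort pairs, and each of the 14 mice left out. Sequences came from RefSeq tables of GRCm38.p6.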

Additional observations from a re-analysis of the deposited data

Results flagged for a closer look

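Within each strain, 244 sets of values from the 14 CD mice (genes named above other than Lpl and Cd5l, and summed markers) were examined for a mouse far from the rest, and 32 sets held one by Dixon's criterion, which chance alone meets in about 1 set in 20. Of these, 17 were in C57BL/6J mouse 2 and 4 in WSB/EiJ mouse 5. In C57BL/6J mouse 2, the lowest of its strain, the values were 49.7 CPM for Mup3, 209 CPM for Mup20, 109.7 CPM for Ddah1, 16.5 CPM for Pttg1, 125 CPM for Me1, 331 CPM for Plin2, 6108 CPM for Apoa1, 7.01 CPM for Slco1a1, 151 CPM for F9, 2119 CPM for Serpina3k, 172 CPM for Ugt3a2, 4.92 CPM for Trim30d, 8.50 CPM for Nr1d1, 7.75 CPM for Per1, 205 CPM for Glul, and 499.7 CPM for the summed endothelial cell markers. In C57BL/6J mouse 2, the highest of its strain, the values were 3.85 CPM for Sult1e1. WSB/EiJ mouse 1 stood apart as the lowest of its strain at 103 CPM for Col5a2 and 0.0520 CPM for H2-Eb1. WSB/EiJ mouse 1 stood apart as the highest of its strain at 3.66 CPM for Ces2c and 218 CPM for the summed lipid-associated or recruited macrophage markers. WSB/EiJ mouse 5 stood apart as the highest of its strain at 2.17 CPM for Gm4788, 166 CPM for Cyp2a5, 154 CPM for Cela1, and 1002 CPM for the summed exocrine pancreas and gut markers. C57BL/6J mouse 6 stood apart as the lowest of its strain at 0.0365 CPM for Xist. C57BL/6J mouse 6 stood apart as the highest of its strain at 0.0730 CPM for Ifi202b. WSB/EiJ mouse 6 stood apart as the lowest of its strain at 46.3 CPM for Cox7a2l and 25.1 CPM for Per1. C57BL/6J mouse 1 stood apart as the lowest of its strain at 10.3 CPM for Gpc1. C57BL/6J mouse 7 stood apart as the lowest of its strain at 13.9 CPM for Fgf21. WSB/EiJ mouse 3 stood apart as the highest of its strain at 209915 CPM for the summed hepatocyte markers.

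The strain difference differed between diets for 16 of the genes named, by the interaction term of the limma-voom fit, given here as the log2 fold change on WD minus that on CD. It was negative for Mup17 (-5.57, adjusted p = 0.0002), Orm3 (-4.41, adjusted p = 0.00113), Ctse (-1.63, adjusted p = 0.0139), Col5a2 (-2.04, adjusted p = 0.00465), Cidec (-3.15, adjusted p = 0.0257), Cd36 (-1.14, adjusted p = 0.0227), C4a (-1.68, adjusted p = 0.0219), Cyp2a22 (-1.49, adjusted p = 0.0488), Ciart (-2.53, adjusted p = 0.0116), Bhlhe41 (-1.84, adjusted p = 0.00316), Dbp (-2.07, adjusted p = 0.0414), Per2 (-1.70, adjusted p = 0.0002), and Per3 (-1.63, adjusted p = 0.0266). It was positive for Ddah1 (2.96, adjusted p = 5.68e-15), Cyp3a11 (2.28, adjusted p = 4.91e-06), and Csad (1.76, adjusted p = 0.00105). No cause of any of these values was tested, nor was the part of cohort, for which the fit had no term.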

How the results depend on the processing

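Of 2939 values of 105 of the genes named, recomputed under 28 alternatives, 2895 kept their direction and their side of the threshold, 31 kept the direction and missed the threshold, 3 newly passed it, and 10 changed sign, and 85 genes kept both under every alternative that gave a value. Of 2352 list counts, 2153 stayed within 1.5 times. With every gene with any count, 41553 genes were tested, 18463 were called, 12434 of them higher in WSB/EiJ (67.3% of calls against 50.3%), and the median of all genes moved to 0.13 on the log2 scale. With upper-quartile scaling 40.9% of the calls were higher. With a mean of at least 1 CPM, which tests 12912 genes, 1805 had a 2-fold call. In the pair of WSB/EiJ cohort 7, which has 2 mice, with C57BL/6J cohort 2, 6504 genes were called, 3003 of them lower, and with cohort 1, 3271 were called lower. DESeq2 called 775 genes for the interaction against 493, and gave 24 genes no adjusted p. The share of reads outside genes differed by 0.527 percentage points with reads mapped to 1 place as the denominator (exact permutation test, adjusted p = 0.0408) and by 0.254 with all reads (adjusted p = 0.208). The cause of these differences was not tested, beyond the fewer genes or mice that the filters and pairs hold. Without 1 mouse at a time, 9752 to 10341 genes were called, 4913 to 5187 higher and 4831 to 5159 lower, and 3720 to 4088 with a 2-fold difference.

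Values that changed sign, none of them past the threshold, were Ddx3y at -0.0010 and Xist at -0.029 with upper-quartile scaling, Xist at -0.049 with cohort as a covariate, at -0.80 in cohort 6 against cohort 1, and at -0.22 to -0.031 without C57BL/6J mouse 6 or WSB/EiJ mouse 3, 4, or 6 (all 14 gave -0.22 to 0.45), Nr1d1 at -0.012 in cohort 6 against cohort 2, and Npas2 at 0.033 in cohort 7 against cohort 2. In the fit of the 14 CD mice alone, Mup3 (1.97), Cyp2a4 (-7.11), Slco1a1 (1.99), Hsd3b5 (2.79), and Npas2 (-2.37) missed the threshold, with log2 fold changes in brackets beside 1.98, -7.11, 2.00, 2.81, and -2.37 in the fit of all 93 mice. In at least 1 of the 4 cohort pairs, whose arms hold fewer mice, so did Mup3, Mup20, Cyp2a4, Cyp2a5, Chrna4, Pnpla3, Me1, Fasn, Fdps, Cidec, Plin2, Slco1a1, Hsd3b5, mt-Co1, Npas2, and Glul, and with sample quality weights Cyp2a5. Leaving out C57BL/6J mouse 2 and WSB/EiJ mouse 5 together was added after seeing the data. No paired analysis was possible because the labels give no replicate numbers that link mice of the strains. Depth limits the values of genes near 0 reads.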
